A study of Mus musculus with 6 samples.

Results

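Collagen chains are the protein subunits of collagen, and each is encoded by a gene whose symbol gives the collagen type and the chain number (Col4a1, type IV, alpha 1). The chains described here were found by name: a row of the deposited table belonged when its symbol was Col, a number, the letter a and a number. This rule took 39 of 16426 genes. A gene is called tested below when it entered the authors' adjustment of p-values, as 34 of the 39 did. The 39 were grouped by the assemblies they form. These were 10 fibrillar chains, 5 chains of the basement membrane network (type IV), 6 chains of beaded filaments (type VI) and 18 other chains. Col2a1, Col4a6, Col9a1, Col19a1 and Col26a1, which also encode collagen chains, were not analysed here.

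The labels describe liver RNA from 6 male C57/BL mice: 3 normal mice that received saline and 3 model mice exposed to 20% CCl4 (carbon tetrachloride, a liver toxin) for 10 weeks. CCl4 is given in this model to produce liver fibrosis, the build-up of scar matrix. A further group of the design, given CCl4 and didymin, was not analysed here. The deposited table compares 2 sets of 3 libraries, headed ly_A and ly_B (sets A and B below), and no label says which mice either set holds. Fold changes were read as A over B from the order of these names, which the headers do not state, and the opposite order would swap every direction. No group was inferred for a set, and the columns of single libraries, which match no labelled sample, were not used. Values per library, levels and read depth are therefore not given, liver marker levels were not checked, and no value below is given as an effect of CCl4.

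Every collagen is a triple helix of 3 chains, and along each chain glycine recurs as the first of 3 residues, the only one small enough for the centre of the helix. Fibrillar collagens pack into the cables of scar and connective tissue, type IV forms the sheet-like network of basement membranes, and type VI forms fine beaded filaments around cells. In liver, stellate cells and portal fibroblasts are known as the main makers of fibrillar collagen, and type IV collagen comes from several cell types including endothelium. Many of the chains join others in one molecule: Col1a1 with Col1a2, Col4a1 with Col4a2, and Col6a1 and Col6a2 with Col6a3.

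The promoters of a pair of chains are shown because these chains lay on the same side of the comparison, and those of another pair because the chains lay apart although they build the same collagen. Sequences are 300-base windows from 250 bases before to 50 bases after the annotated start, taken from RefSeq on build GRCm38.p6 and printed 5′ to 3′ on the gene's strand. The table of promoters held 34 such windows for 32 of the 39 chains. Col4a1 lies on the minus strand (chr8:11312777-11313076) and Col4a2 on the plus strand (chr8:11312555-11312854). Capitals mark the 78 bases that their windows share, read from opposite strands. The annotated starts of this pair lie 21 bases apart.
Col4a1: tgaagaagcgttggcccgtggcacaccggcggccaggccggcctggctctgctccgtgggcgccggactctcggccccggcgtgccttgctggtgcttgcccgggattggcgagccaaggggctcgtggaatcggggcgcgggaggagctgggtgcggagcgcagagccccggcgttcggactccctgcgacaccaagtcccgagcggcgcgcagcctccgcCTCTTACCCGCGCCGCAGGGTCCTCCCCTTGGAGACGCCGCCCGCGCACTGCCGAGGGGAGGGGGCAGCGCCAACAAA
Col4a2: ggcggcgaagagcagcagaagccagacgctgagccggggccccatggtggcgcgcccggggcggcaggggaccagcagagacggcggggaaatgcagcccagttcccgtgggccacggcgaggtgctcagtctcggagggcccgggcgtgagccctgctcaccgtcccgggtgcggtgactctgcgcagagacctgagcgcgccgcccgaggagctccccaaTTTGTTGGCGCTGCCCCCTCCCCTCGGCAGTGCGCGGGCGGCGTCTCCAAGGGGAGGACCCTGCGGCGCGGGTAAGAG

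Col5a1 (chr2:27886175-27886474, plus strand) and Col5a3 (chr9:20815018-20815317, minus strand) are on the same build, with capitals for matches to the 4 motifs described below.
Col5a1: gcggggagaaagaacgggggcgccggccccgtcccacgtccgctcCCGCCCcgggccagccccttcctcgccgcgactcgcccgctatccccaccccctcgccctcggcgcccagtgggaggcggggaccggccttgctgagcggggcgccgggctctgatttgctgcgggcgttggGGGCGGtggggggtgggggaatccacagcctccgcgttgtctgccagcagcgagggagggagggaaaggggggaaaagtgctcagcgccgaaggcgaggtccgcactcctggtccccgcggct
Col5a3: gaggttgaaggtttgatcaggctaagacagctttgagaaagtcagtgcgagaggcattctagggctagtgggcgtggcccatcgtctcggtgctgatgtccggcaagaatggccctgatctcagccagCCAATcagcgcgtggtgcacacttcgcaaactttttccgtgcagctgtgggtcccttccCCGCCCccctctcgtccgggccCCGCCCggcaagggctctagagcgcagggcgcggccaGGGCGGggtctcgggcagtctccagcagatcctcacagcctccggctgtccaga

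In the authors' deposited table, the minor fibrillar chains Col27a1, Col5a3 and Col11a2 were higher in set A by 14.3-fold, 8.35-fold and 4.73-fold. The type IV chains Col4a1 and Col4a2 were both higher in set B, by 1.60-fold and 1.72-fold in the authors' deposited table. The type VI chain Col6a6 was higher in set B by 6.54-fold in the authors' deposited table. The major fibrillar chains Col1a1, Col1a2 and Col3a1 did not pass in either direction.

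The threshold for a call was an adjusted p below 0.05 over the 14114 genes tested. By the authors' deposited table, 6 of the 34 tested chains were called higher in set A (17.6%), where 18.1% of all tested genes were. Another 4 were called higher in set B (11.8%), where 17.7% of all tested genes were. Neither share of the chains exceeded the background share. The median log2 fold change, with positive values for set A, was 0.27 over the 34 chains and 0.07 over all tested genes of the authors' deposited table. The chains spanned log2 values from -2.71 to 5.12 in that table.

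**Figure D1:**
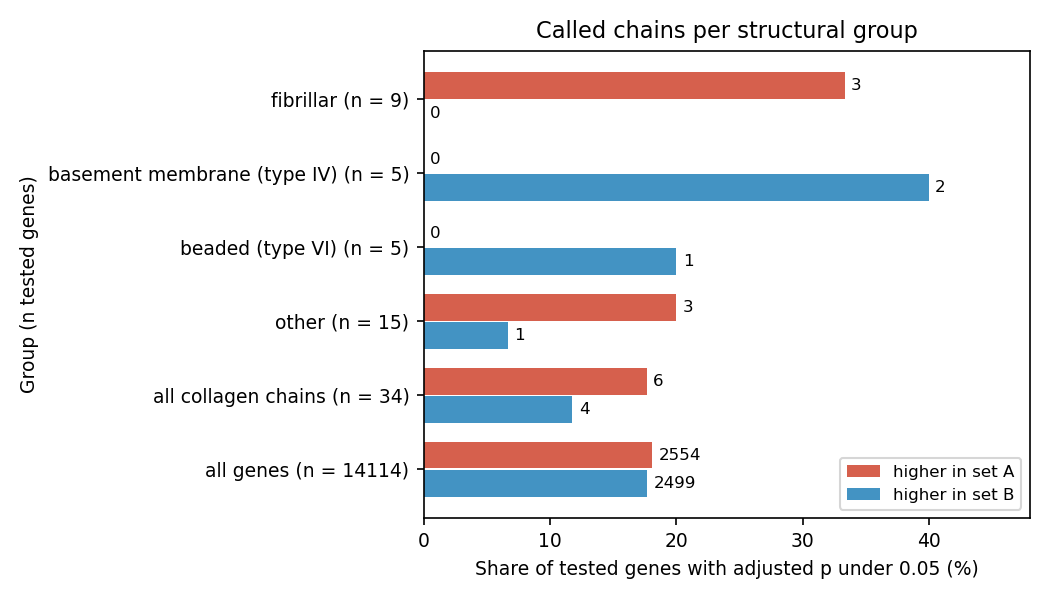
Share of tested genes called at an adjusted p under 0.05 (horizontal axis, percent) for each structural group, all 34 tested collagen chains and all 14114 tested genes, with the number called at each bar. Red bars are genes higher in set A and blue bars genes higher in set B; calls towards set A fall among fibrillar and other chains, and the type IV calls lie towards set B.

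The deposited table gives no error, so one was worked back from each fold change and p. It is the standard error (SE) of the log2 fold change that a Wald test with that p implies, and the 95% interval that follows from it. Whether the authors' p came from a Wald test is not given in the sources used here. Intervals are not adjusted for the number of genes, so a chain can miss the adjusted threshold with an interval that leaves out 0.

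**Figure D2:**
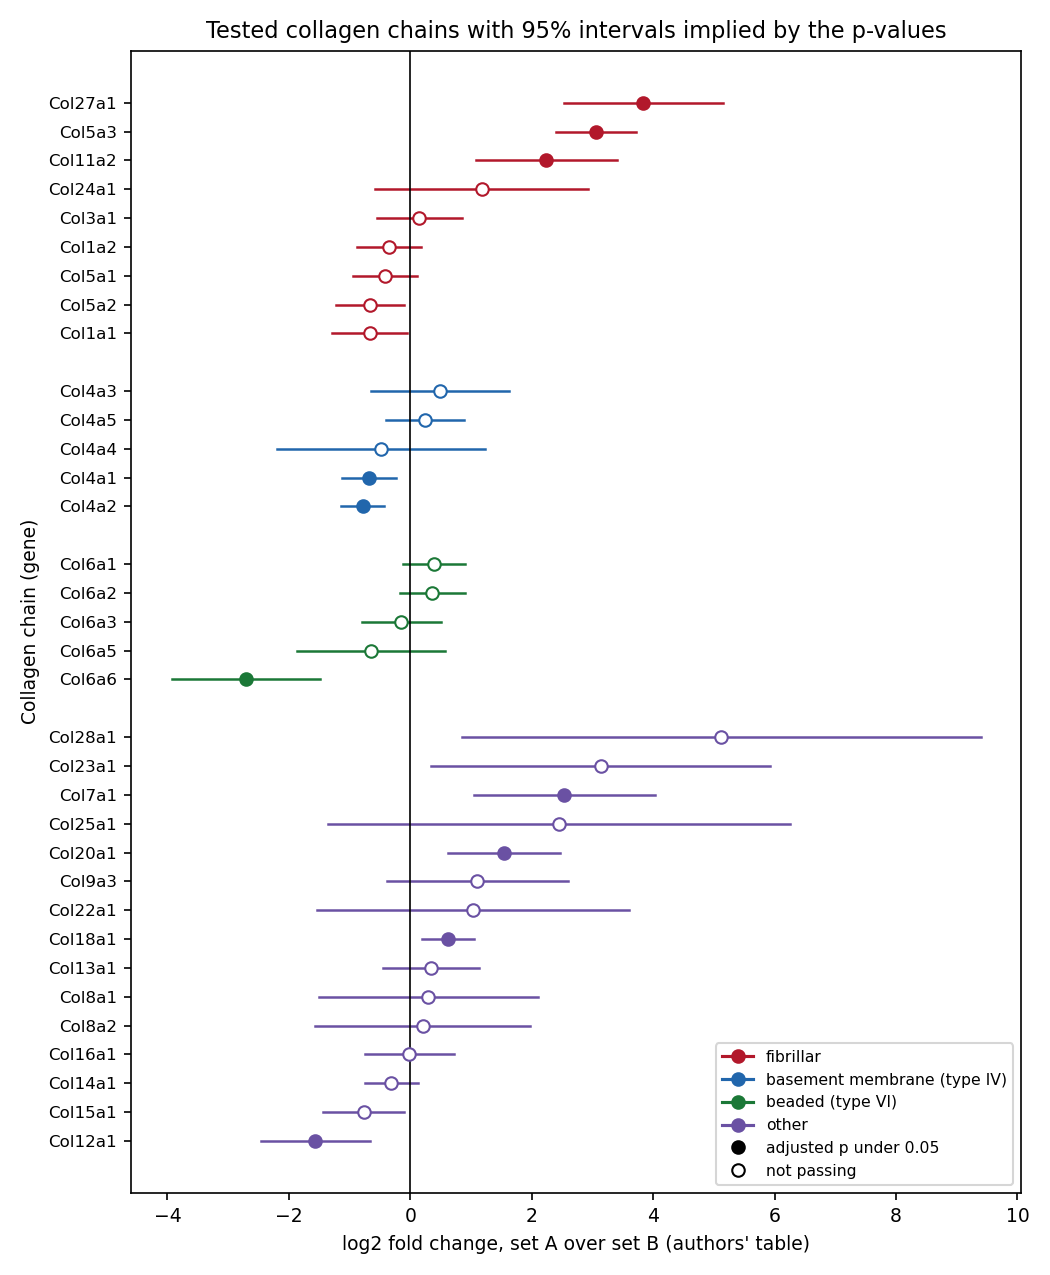
The log2 fold change of set A over set B in the authors' deposited table (horizontal axis) for the 34 tested collagen chains, coloured by structural group, with lines for the implied 95% intervals. Filled circles passed an adjusted p under 0.05; Col27a1 and Col5a3 stand far to the right with intervals that stay above 2, and Col28a1 has the widest interval, from 0.85 to 9.40.

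Among the 9 tested fibrillar chains, 3 passed towards set A and 0 towards set B by the authors' test, for which the processing notes name DESeq2. At an unadjusted p under 0.05 these counts were 3 and 2. Over all 14114 tested genes, 3230 had such an unadjusted p towards set A and 3045 towards set B. These are the background for the unadjusted counts of the groups below. The called shares were 33.3% and 0%, against 18.1% and 17.7% of all tested genes. Col5a3, a minor chain of type V collagen, the type that regulates fibril width, stood at 3.06 with the smallest adjusted p of any chain (7.55e-18) in the authors' deposited table. Its implied interval ran from 2.41 to 3.72. Col27a1, a chain known from cartilage, had the largest log2 value of any called chain (3.84, adjusted p = 1.74e-07) in the authors' deposited table, with an implied interval of 2.54 to 5.15. Col11a2, a type XI chain that is also best known from cartilage, stood at 2.24 (adjusted p = 0.000873) in the authors' deposited table, with an implied interval of 1.09 to 3.40. All of these intervals lay beyond a 2-fold difference.

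The chains that form the bulk of scar collagen did not pass. Col1a1, the main chain of type I collagen, stood at -0.66 (adjusted p = 0.0859) in the authors' deposited table, with an implied interval of -1.28 to -0.05. Its partner Col1a2 stood at -0.35 (adjusted p = 0.325) in the authors' deposited table, with an implied interval of -0.88 to 0.18. Col3a1, which forms type III collagen alone, stood at 0.15 (adjusted p = 0.778) in the authors' deposited table, with an implied interval of -0.55 to 0.85. The intervals of Col1a2 and Col3a1 stay within a 2-fold difference either way, and that of Col1a1 reaches past 2-fold towards set B. Col24a1, another minor fibrillar chain, stood at 1.18 without passing (adjusted p = 0.309) in the authors' deposited table.

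Type V collagen showed the widest gap between chains of one type among the fibrillar collagens. Col5a1 stood at -0.42 (adjusted p = 0.221) and Col5a2 at -0.66 (adjusted p = 0.0585) in the authors' deposited table, against 3.06 for Col5a3. Their implied intervals, -0.94 to 0.11 for Col5a1 and -1.22 to -0.09 for Col5a2, did not meet that of Col5a3. The difference between the chains was not tested, since they come from the same libraries.

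Both widely expressed type IV chains were called towards set B. Col4a2 stood at -0.78 (adjusted p = 0.000122) and Col4a1 at -0.68 (adjusted p = 0.0108) in the authors' deposited table. Their implied intervals were -1.14 to -0.43 for Col4a2 and -1.12 to -0.23 for Col4a1. The implied SE of Col4a2, 0.18, was the smallest among the tested chains. These genes overlap at their starts on opposite strands, and reads there can be told apart only by strand, whose use in counting is not given. The chains Col4a3, Col4a4 and Col4a5, known from the basement membrane of the kidney filter, stood at 0.49, -0.48 and 0.24 in the authors' deposited table without passing (smallest adjusted p = 0.536). In all, 2 of 5 type IV chains passed towards set B and 0 towards set A by the authors' test, with the same counts at an unadjusted p under 0.05. As shares these are 40.0% and 0%, where 17.7% and 18.1% of all tested genes were called.

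Among type VI chains, 1 alternative chain passed and the core chains did not. Col6a1, Col6a2 and Col6a3, which make the usual beaded filament, stood at 0.39, 0.37 and -0.15 in the authors' deposited table (smallest adjusted p = 0.243). The implied intervals of all 3 stay within a 2-fold difference. Col6a6, which resembles Col6a3 and can take its place, stood at -2.71 (adjusted p = 0.000112) in the authors' deposited table, with an implied interval of -3.93 to -1.49. Col6a5, another such chain, stood at -0.65 (adjusted p = 0.439) in the authors' deposited table, and Col6a4 was left out of the adjustment. Of 5 tested type VI chains, 1 passed towards set B and 0 towards set A by the authors' test, as also at an unadjusted p under 0.05. The share towards set B, 20.0%, is near the 17.7% of all tested genes.

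Of the 15 other chains tested, 3 passed towards set A and 1 towards set B. These are 20.0% and 6.67%, against 18.1% and 17.7% of all tested genes, so the share towards set A is near the background. Col7a1, the anchoring fibril collagen of skin, stood at 2.54 (adjusted p = 0.00401) in the authors' deposited table, with an implied interval of 1.05 to 4.03. Col20a1, a fibril-associated chain, stood at 1.55 (adjusted p = 0.0046) in the authors' deposited table. Col18a1, a basement membrane chain whose end fragment is endostatin and which hepatocytes are known to make, stood at 0.62 (adjusted p = 0.0149) in the authors' deposited table, with an implied interval of 0.20 to 1.05. Col12a1, a fibril-associated chain that coats type I fibrils, was the chain called higher in set B, at -1.56 (adjusted p = 0.0034) in the authors' deposited table, with an implied interval of -2.46 to -0.66. Its relative Col14a1 stood at -0.31 without passing (adjusted p = 0.276) in the authors' deposited table.

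The multiplexins Col15a1 and Col18a1, which both sit at basement membranes, lay on opposite sides of 0. Col15a1 stood at -0.76, which missed the threshold (adjusted p = 0.064), in the authors' deposited table, with an implied interval of -1.43 to -0.10. The 4 uncalled chains with the smallest p in the authors' deposited table were Col28a1 (adjusted p = 0.0518), Col5a2, Col15a1 and Col23a1 (adjusted p = 0.0701). Col28a1 at 5.12 and the transmembrane chain Col23a1 at 3.14 had larger log2 values in that table than most called chains. The remaining chains of this class, Col8a1, Col8a2, Col9a3, Col13a1, Col16a1, Col22a1 and Col25a1, did not pass and ran from -0.02 (Col16a1) to 2.45 (Col25a1) in the authors' deposited table.

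Large fold changes were often poorly determined. The median implied SE was 0.43 over the 34 tested chains and 0.29 over all tested genes. The called shares of chains and of all genes are therefore not set side by side at like precision. In 19 chains the implied SE was under 0.5, and their log2 values ran from -1.56 to 3.06 with 6 called, 3 in each direction. In 11 chains it was between 0.5 and 1, with 3 called towards set A and 1 towards set B. In Col22a1, Col23a1, Col25a1 and Col28a1 it was 1 or more: all 4 had log2 values above 1 towards set A and 0 were called by the authors' test. At an unadjusted p under 0.05 this count was 2 (Col23a1 and Col28a1). The SE is worked back from the same p that decides a call, so a large uncalled fold change has a large SE by arithmetic. The share of all tested genes called at each level of SE is not given here. Among the 24 uncalled chains, 9 had an implied interval within 2-fold either way: Col1a2, Col3a1, Col4a5, Col5a1, Col6a1, Col6a2, Col6a3, Col14a1 and Col16a1. For the other uncalled chains a 2-fold difference lay within the interval. Among the 10 called chains, the intervals of Col5a3, Col6a6, Col7a1, Col11a2 and Col27a1 lay wholly beyond 2-fold.

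**Figure D3:**
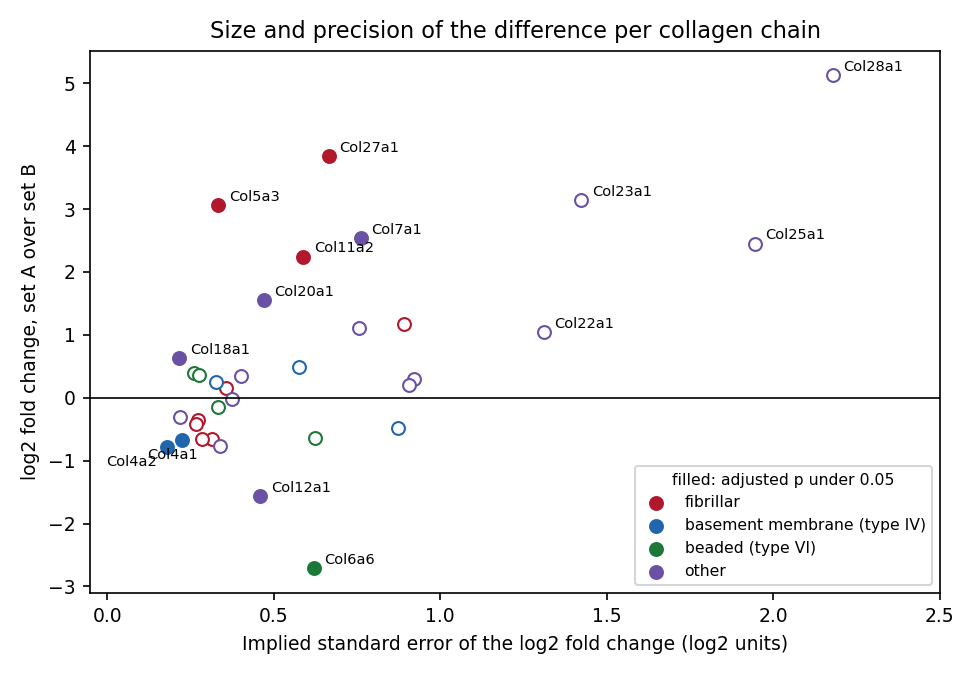
Log2 fold change of set A over set B in the authors' deposited table (vertical axis) against its implied standard error in log2 units (horizontal axis) for the 34 tested chains; filled points passed an adjusted p under 0.05. The 4 points to the right of an error of 1 are all positive and open, and the type IV chains Col4a1 and Col4a2 lie at the left edge.

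Col6a4, Col9a2, Col10a1, Col11a1 and Col17a1 were left out of the adjustment, their adjusted p being listed as 1. Their unadjusted p by the authors' test ran from 0.459 (Col17a1) to 0.943 (Col10a1). The fitted log2 values of Col11a1 (unadjusted p = 0.493) and Col17a1 were each 2.74 in the authors' deposited table. They are not read as differences.

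Several collagen genes are direct neighbours in the mouse genome, as RefSeq orders protein-coding genes. Of 6 neighbouring pairs among the chains, both genes had been tested in 5. The pair was called together in 1 of these, Col4a1 with Col4a2. Col6a1 and Col6a2, at 0.39 and 0.37, also lay close to each other in the authors' deposited table without passing. Col3a1 with Col5a2 (0.15 and -0.66) and Col4a3 with Col4a4 (0.49 and -0.48) lay on opposite sides of 0 in the authors' deposited table, and none of these 4 chains passed. Col6a5 with Col6a6 lay on the same side at -0.65 and -2.71, with only Col6a6 called in the authors' deposited table.

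In the promoter windows, 4 motifs were searched on both strands. The GC box GGGCGG, a site of the factor Sp1, was in 22 of the 34 collagen windows (64.7%) and in 35.7% of the 32851 windows counted. Windows of 1 chromosome were left out of this count, and the windows were not limited to tested genes. Collagen windows were also richer in G and C, with a median of 60.2% against 52.7% over all windows counted. The CCAAT box CCAAT was in 12 collagen windows (35.3%; 37.4% of all), the TATA box TATAAA in 5 (14.7%; 13.6% of all) and the AP-1 motif TGANTCA in 1, that of Col6a1 (2.94%; 7.81% of all). None of the searched motifs overlapped another in the Col5a1 and Col5a3 windows. Col5a3 held 1 CCAAT and 3 GC boxes, and Col5a1 held 2 GC boxes. Col4a1 held 1 CCAAT and 1 GC box, and Col4a2 held 1 CCAAT and 3 GC boxes. A match describes the letters of a window and says nothing of binding.

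Many collagen genes have coding exons whose lengths match the repeat of the triple helix. Each repeat of glycine and 2 other residues takes 9 bases, and in GENCODE M21 61.4% of the 1804 coding exons of the 39 chains had a length that is a multiple of 9, against 14.0% of the 154141 coding exons of all tested protein-coding genes. Fibrillar genes had the highest shares, with 82.4% of 595 coding exons a multiple of 9 and 47.2% exactly 54 bases long. In type IV genes these shares were 44.2% and 3.98%, and in type VI genes 51.6% and 7.83%. Single genes varied: Col8a1, Col8a2 and Col10a1 had 2 coding exons each and 0 that were a multiple of 9, and the share was 21.5% in Col12a1 and 27.7% in Col14a1. The multiple-of-9 share was 56.7% in the 10 called chains and 63.3% in the 24 uncalled ones.

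**Figure D4:**
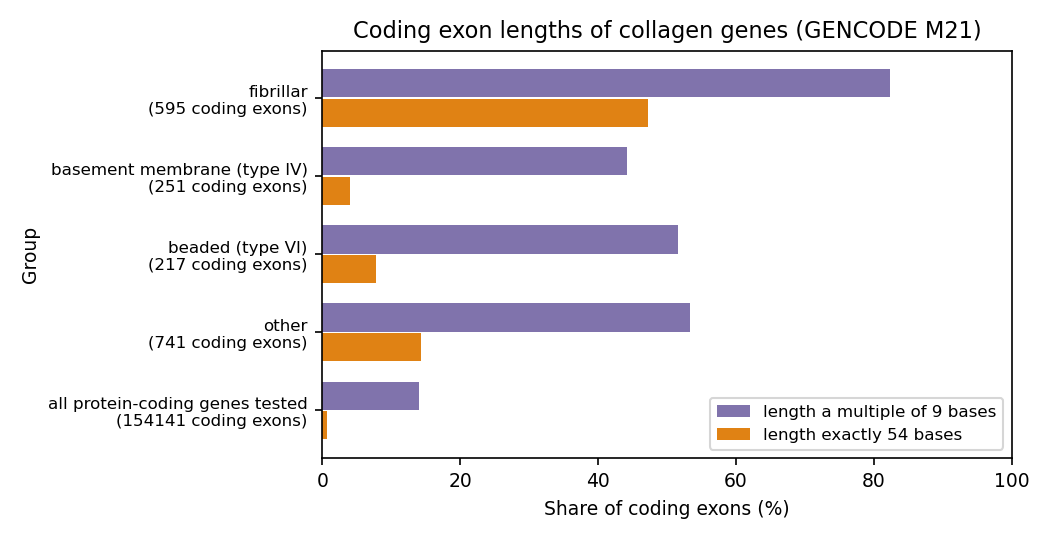
Share of coding exons (horizontal axis, percent) whose length is a multiple of 9 bases (purple) or exactly 54 bases (orange), for the 4 structural groups and for all tested protein-coding genes, from the transcript with the longest coding sequence per gene in GENCODE M21. Fibrillar genes have the longest bars of both kinds, at 82.4% and 47.2%.

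Chains must be hydroxylated, folded, trimmed and cross-linked before they form a matrix, and cells sense that matrix through collagen receptors. Of 16 tested maturation genes, 1 passed towards set A and 5 towards set B by the authors' test, with a median log2 value of -0.35. The prolyl hydroxylases P4ha1 at -0.83 (adjusted p = 0.0256) and P3h1 at -0.82 (adjusted p = 3.39e-05), and the collagen galactosyltransferase Colgalt1 at -0.78 (adjusted p = 0.00154), had the largest called differences in the authors' deposited table. Of 11 tested genes of procollagen processing and cross-linking, 2 passed towards set A and 1 towards set B by the authors' test (median 0.13). Pcolce2, which enhances removal of the procollagen end, stood at 1.71 (adjusted p = 0.0112), the procollagen protease Bmp1 at 0.75 (adjusted p = 0.017) and the cross-linking oxidase Loxl2 at -1.20 (adjusted p = 0.0134) in the authors' deposited table.

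Of 9 genes of collagen breakdown and its inhibitors, 1 passed towards set A and 3 towards set B by the authors' test (median -0.64). Timp1, an inhibitor of matrix proteases, stood at -4.64 (adjusted p = 1.41e-10), the collagenase Mmp13 at -3.45 (adjusted p = 4.57e-05) and the membrane-bound protease Mmp14 at -1.62 (adjusted p = 1.02e-19) in the authors' deposited table. The gene called towards set A was another inhibitor, Timp3, at 1.14 (adjusted p = 0.000201). The median pools proteases with inhibitors. Of 9 tested collagen receptors, 1 passed towards set A and 2 towards set B by the authors' test (median -0.14). The kinase receptor Ddr1 stood at -2.08 (adjusted p = 5.61e-11), the shared integrin chain Itgb1 at -0.99 (adjusted p = 2.03e-05) and the fibrillar collagen integrin Itga11 at 3.19 (adjusted p = 0.0459) in the authors' deposited table. Itga11 was poorly determined, with an implied SE of 1.33 and an implied interval of 0.59 to 5.79. The implied SE was 0.29 for Ddr1 and 0.21 for Itgb1. The share of all tested genes called in either direction was 35.8%, against 37.5%, 27.3%, 44.4% and 33.3% in these 4 lists. In the same order, the shares towards set A were 6.25%, 18.2%, 11.1% and 11.1%, against 18.1% of all tested genes. Those towards set B were 31.25%, 9.09%, 33.3% and 22.2%, against 17.7%. The lists were chosen with earlier results of these data known, so these shares test no excess.

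**Figure D5:**
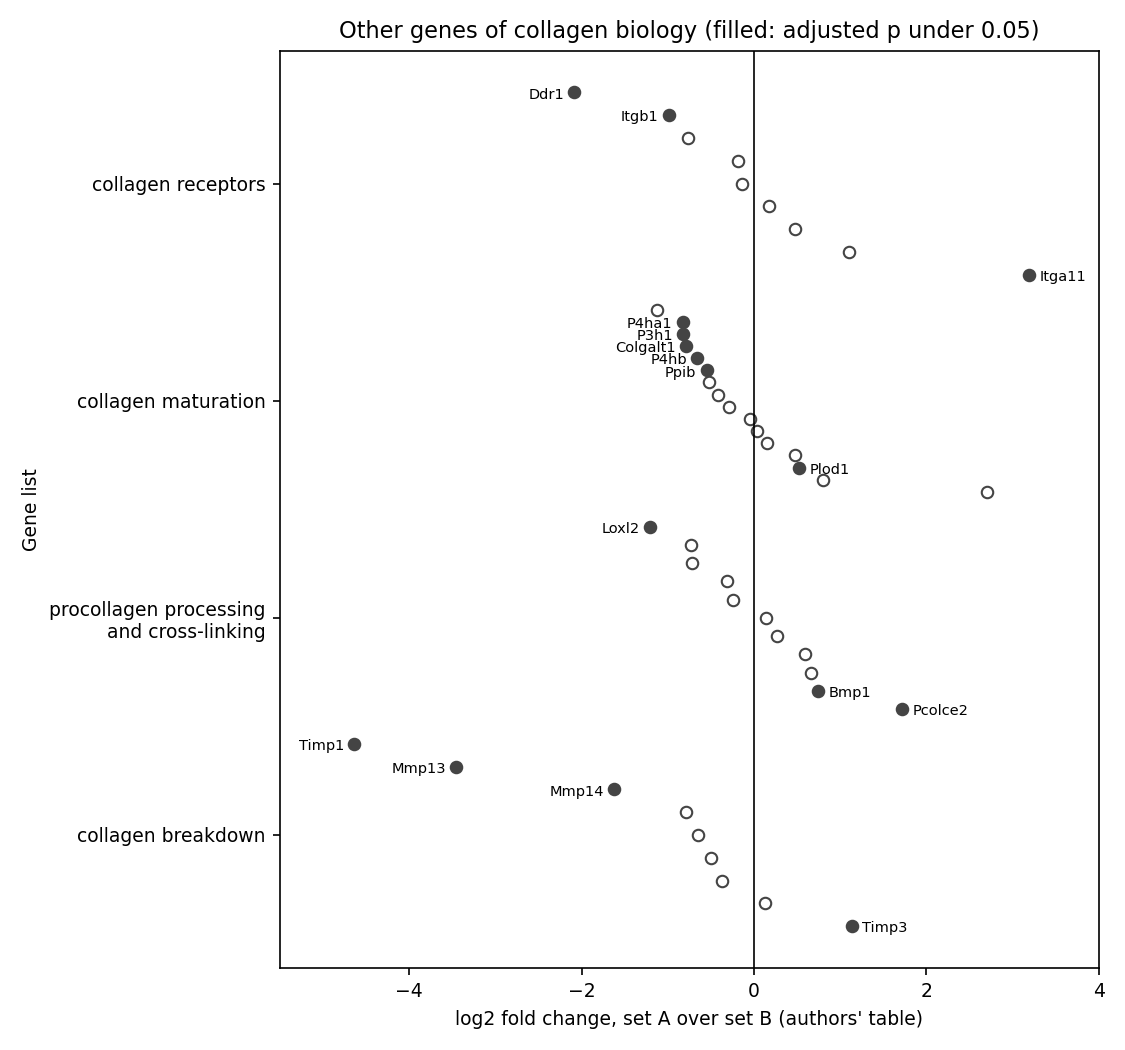
Log2 fold change of set A over set B in the authors' deposited table (horizontal axis) for tested genes of 4 lists of collagen biology, ordered by value within each list. Filled and named points passed an adjusted p under 0.05; the points farthest to the left are Timp1 at -4.64 and Mmp13 at -3.45, both of the breakdown list.

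Markers of cell types that can make collagen, and of other liver cells, were counted the same way, and their part in the values of the chains was not tested. Their counts are to be read against the 18.1% of all tested genes called towards set A and the 17.7% called towards set B. For counts at an unadjusted p under 0.05 the background was 3230 and 3045 of all 14114 tested genes. The marker lists were chosen with earlier results of these data known, so a share above these is no test of an excess. In whole tissue, fewer cells of a type and less RNA per cell cannot be told apart. Of 7 tested stellate cell and myofibroblast markers, 1 passed towards set A (Thy1 at 1.90) and 1 towards set B (Pdgfrb at -0.67) by the authors' test, with a median of -0.0017. That is 28.6% called in either direction, below the 35.8% of all tested genes. Of 6 smooth muscle and portal fibroblast markers, 4 passed towards set A and 0 towards set B by the authors' test, led by Clec3b (log2 2.83), Pln (2.19) and Fbln1 (1.53) in the authors' deposited table. Of 6 endothelial markers, 4 passed towards set A and 0 towards set B by the authors' test, with Vwf at 1.89, Stab2 at 1.77 and Pecam1 at 1.19 in the authors' deposited table. In both of these lists 66.7% passed towards set A, and 0 markers were higher in set B at an unadjusted p under 0.05.

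Of 5 mesothelial markers, 0 passed towards set A and 3 towards set B by the authors' test (1 and 3 at an unadjusted p under 0.05), 60.0% towards set B, namely Upk3b (-3.32), Msln (-3.25) and Upk1b (-3.08) in the authors' deposited table. Of 5 cholangiocyte markers, 0 passed towards set A and 1 towards set B by the authors' test (1 and 1 at an unadjusted p under 0.05), 20.0% towards set B and near the background. That marker was Sox9 at -1.68, and Krt19, which stands in both lists, did not pass at 0.98 (adjusted p = 0.1) in the authors' deposited table. Of 5 hepatocyte markers, 2 passed towards set A and 1 towards set B by the authors' test, 40.0% and 20.0%, with Apoa1 at 1.22, Ttr at 1.07 and Apob at -1.07.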

How the data were processed

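The authors' deposited table holds, per the file headers, a log2 fold change, a p-value and an adjusted p-value per gene for ly_A against ly_B, beside 18 columns of single libraries. Those 18 columns match no labelled sample and entered no step, so the fit was not repeated and depth and library totals were not examined. The submitters' processing notes name DESeq2, without a version, and build mm9; no source used here gives the aligner, counter or annotation. The log2 fold change was read as set A over set B from the order of the names, which the headers do not state. Of 16426 rows, 2312 had an adjusted p of exactly 1. The other 14114 equalled a Benjamini-Hochberg adjustment of their deposited p over those rows to within a relative difference of 9.47e-13. The 2312 were therefore taken as left out of the adjustment. They are not counted as tested, although a p is deposited for them.

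Implied standard errors are the absolute log2 fold change divided by the normal deviate of the two-sided p (SciPy 1.17.1). This step and the adjustment were run on simulated data built with the same relation. That checks the arithmetic only and cannot show that the deposited p follows this relation. Nothing in the headers says that the libraries of a set come from separate animals, so p-values measure only the spread between these libraries, which may be technical. Members, groups, lists and the rule for named genes were chosen with earlier results of these data known. Named were all called chains, the 4 uncalled with the smallest p, 8 chains fixed by name, neighbouring pairs, and up to 3 called genes of each other list (the 2 with the smallest p where fewer than 2 passed). Timp3 was named in addition. 5 listed symbols were matched through RefSeq synonyms. GENCODE M21 and RefSeq are on GRCm38, not mm9, so gene coordinates are not given and only promoter windows carry positions. Alternatives tried were a threshold of 0.01, an added requirement of 2-fold, adjustment over every row, Bonferroni adjustment, and centring on the median of all tested genes.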

Additional observations from a re-analysis of the deposited data

How the results depend on the processing

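Adjustment over every row left the 6 chains called towards set A and the 4 towards set B, and an adjusted p under 0.01 left 5 and 3, without Col18a1 and Col4a1. With a 2-fold difference as well, 5 and 2 chains were called, without Col18a1, Col4a1 and Col4a2, so the calls of both type IV chains rest on differences below 2-fold. With Bonferroni adjustment 2 chains, Col5a3 and Col27a1, passed towards set A and 0 towards set B. With an unadjusted p under 0.05 by the authors' test there were 8 chains towards set A and 7 towards set B. Of all 14114 tested genes, 3230 and 3045 had such a p. After centring on the median, and with no test, 10 chains lay beyond 2-fold towards set A and 2 towards set B. For all tested genes, counts under the every-row, 0.01, 2-fold, Bonferroni and centred settings are not given here. Whether the lean of the chains towards set A under these settings differs from that of all tested genes was therefore not tested. The median over all 39 rows was 0.29, against 0.27 over the 34 tested. No paired analysis was possible because the single-library columns match no labelled sample; for the same reason leaving out a library, edgeR, another normalization and a filter on low counts were not run. Depth per chain was not examined, since the single-library columns were left out, and precision is given here only as implied standard errors.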
